A study of Mus musculus with 24 samples.

Results

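Cadherins and protocadherins are adhesion proteins of the cell surface, and 56 of their genes were measured here among 18193 genes. They are the genes with a probe set that carries exactly 1 symbol, either Cdh followed by a number (21 genes) or beginning with Pcdh (35 genes). Each gene was read from the probe set with the highest mean over all 24 arrays, out of 101 probe sets for these genes. A probe set is the group of short DNA probes that an Affymetrix array uses to measure 1 transcript. Of the 56 members, 38 passed a filter that left out the dimmest 40% of probe sets, and these 38 were tested.

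The arrays hold total RNA from mouse brain, taken in a selection experiment on contextual fear conditioning. In this test a mouse that was shocked in a chamber is put back there and the time it stays immobile is scored. All animals come from a cross of 2 inbred strains, C57BL/6J with A/J. The 4 groups, with 6 arrays each, are amygdala of high freezing mice, amygdala of low freezing mice, hippocampus of high freezing mice and hippocampus of low freezing mice. Age, sex, housing and the generation of selection are not given in the sources used here, nor is whether an array holds 1 animal or a pool, so a p-value here covers only the spread among arrays, which may be technical.

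Cadherins bind cadherins of a neighbouring cell through repeated outer domains that need calcium. Inside the cell, classical cadherins hold beta-catenin and p120-catenin, and beta-catenin ties them to actin through alpha-catenin. Protocadherins lack the sites for beta-catenin and p120-catenin and signal by other routes. In the brain each neuron type shows its own mixture of these proteins, which helps axons to find partners, and clustered protocadherins are picked from a row of promoters so that single neurons carry different sets. Some members are also known for roles at hippocampal synapses.

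Array medians lay between 36.7 and 43.4 intensity units, and arrays of 1 group correlated between 0.969 and 0.983 across probe sets. Marker genes separated the regions. The summed level of 5 dentate granule cell markers was 126 to 212 units in amygdala arrays, against 1070 to 1370 in hippocampus arrays. For 3 markers of excitatory neurons it was 756 to 1130 units in the amygdala, against 3470 to 4130 in the hippocampus. Markers of striatum and central amygdala summed to 2630 to 7560 units in the amygdala, against 303 to 424 in the hippocampus, and all 5 tested were higher. Markers of oligodendrocytes summed to 27300 to 38300 units in the amygdala, against 11200 to 15000 in the hippocampus. Of 3 markers chosen for the basolateral amygdala, Rspo2 and Nr4a2 were lower in the amygdala arrays (log2 differences of -1.90 and -2.59) and Otof was higher (1.54). All 5 choroid plexus markers were higher in the amygdala arrays, with a median log2 difference of 3.17 and sums of 14100 to 20600 units, against 1860 to 13300 in hippocampus arrays. All 4 thalamus markers were higher as well (median 1.5), at 713 to 3850 units in the amygdala against 372 to 486 in the hippocampus. Of 4 hypothalamus markers 2 were higher (median of the 4, 1.38), at 360 to 1760 units in the amygdala against 159 to 249 in the hippocampus. Relative to the hippocampus arrays, those labelled amygdala were thus higher in markers of striatum and central amygdala, choroid plexus and thalamus. They were lower in 2 of 3 basolateral markers, which the hippocampus itself carries: Rspo2 averaged 70.8 units against 283 there, and Nr4a2 107 against 685. A contrast of the 2 regions does not measure how much of each tissue the amygdala arrays hold. The part of these neighbouring tissues in the regional calls of the members was not tested. In dissected tissue, fewer cells of a type and less RNA per cell cannot be told apart, which applies to each regional difference that follows.

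Between the regions, cadherins and protocadherins moved in both directions. Of the 38 members tested, 25 passed an adjusted p of 0.05 in limma (Benjamini-Hochberg over all 27022 probe sets kept), 13 of them higher and 12 lower in the amygdala. That is 65.8% of the members tested. Of all probe sets kept 51.2% passed, and with each gene at its brightest probe set 56.2% of 12471 genes passed, 31.6% higher and 24.6% lower. Regional differences were thus the rule among genes, and the members' count is to be read against that. The median absolute log2 difference was 0.40 over the members, beside 0.21 over all genes. Called members that differed at least 2-fold numbered 5 (13.2%), beside 6.9% of all genes. In 12 members (31.6%) the 12 amygdala arrays and the 12 hippocampus arrays did not overlap, beside 17.1% of all genes. Folds here are on the log2(intensity + 16) scale and understate the change of dim genes, and levels of different probe sets are not comparable with each other.

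**Figure D1:**
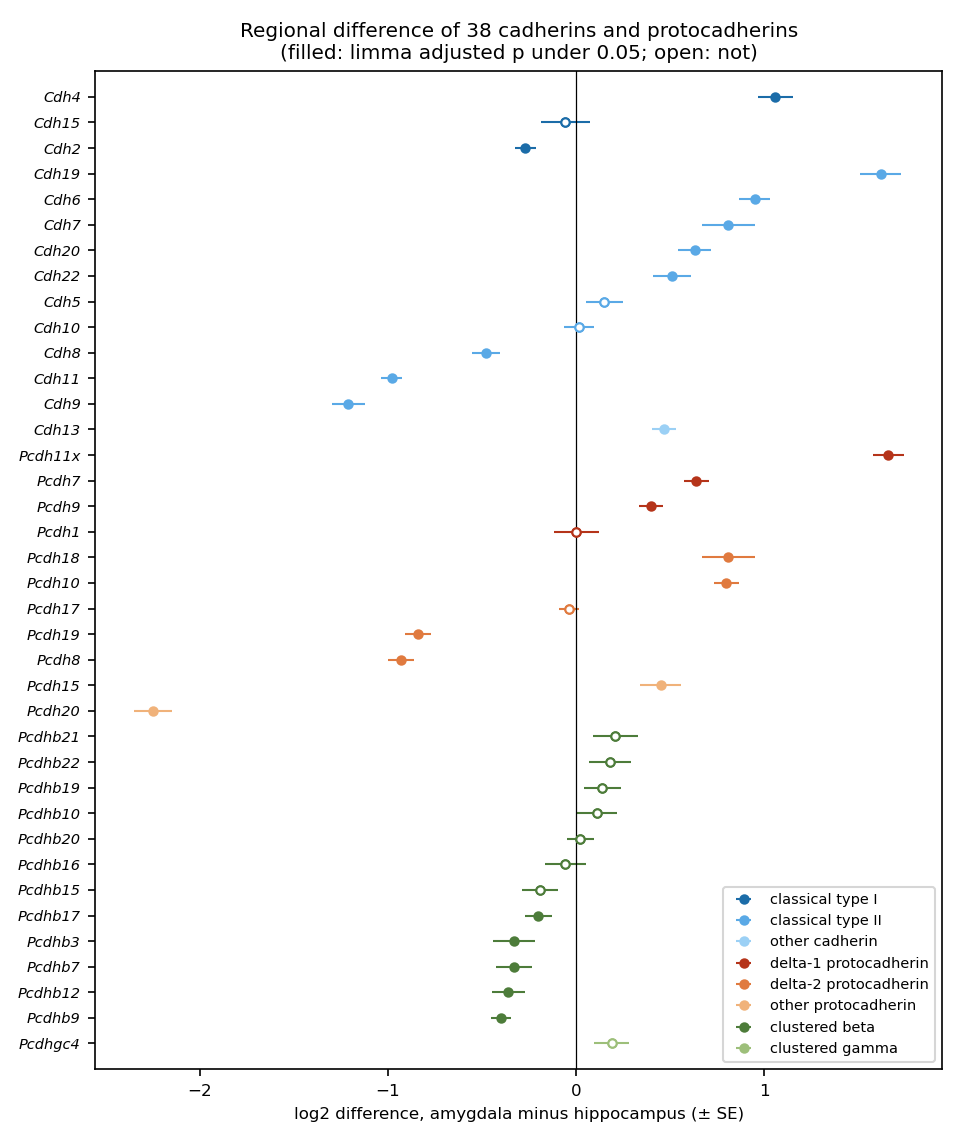
Log2 difference, amygdala minus hippocampus, with its standard error from limma, for the 38 members tested, grouped by class; filled points passed an adjusted p of 0.05 and open points did not. Pcdh20 stands at -2.25 and Pcdh11x at 1.66, and no beta protocadherin with a filled point lies above 0.

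Pcdh20, a protocadherin outside the clusters and outside the delta-1 and delta-2 groups, had the widest gap of the 38 members. Its intensity was 117 at the lowest, 219 at the median and 426 at the highest amygdala array, against 1000, 1120 and 1290 in the hippocampus. Every amygdala array lay far below every hippocampus array, and the amygdala arrays also differed more among themselves.
Pcdh20 averaged 233 ± 81.8 units over 12 amygdala arrays and 1120 ± 87.4 over 12 hippocampus arrays (SD), a log2 difference of -2.25 (SE 0.10, limma adjusted p = 2.11e-17) or a 4.75-fold lower level. Its other probe set, which is dimmer, gave -2.04 (limma adjusted p = 5.56e-13). Within regions the log2 SD of Pcdh20 was 0.380 in the amygdala and 0.112 in the hippocampus. A wider spread in the amygdala was common among the members (25 of 38, 65.8%) and among all genes (55.4%).

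Type II cadherins, classical cadherins whose expression follows brain nuclei and circuits, were measured through 11 genes, of which 10 were tested. In this class 5 were higher in the amygdala, 3 were lower, and Cdh5 and Cdh10 did not pass. So 80% of the 10 tested were called, beside 56.2% of all genes (31.6% higher and 24.6% lower). Cdh9, which in mouse takes part in the synapse between dentate granule cells and CA3 neurons, had 146, 187 and 279 units at the lowest, median and highest amygdala array, against 410, 474 and 531 in the hippocampus. The regions did not overlap, and Cdh9 was 2.32-fold lower in the amygdala (log2 -1.21, SE 0.087, limma adjusted p = 7.72e-13). Cdh11, found on many neurons and on mesenchymal cells, had 272, 335 and 390 units in the amygdala, against 553, 673 and 792 in the hippocampus. Again no array of one region reached the other, at 1.98-fold lower (log2 -0.98, SE 0.055, limma adjusted p = 2.91e-15), and the dimmer probe set of Cdh11 gave -1.40. Cdh8, which marks connected groups of neurons, had 169, 202 and 277 units in the amygdala, against 257, 294 and 350 in the hippocampus. Its regions overlapped at their edges, with the amygdala lower (log2 -0.48, limma adjusted p = 2.76e-06). The 5 dentate markers given above moved in the same direction as Cdh9, Cdh11, Cdh8 and Pcdh20, and the share of dentate cells in these results was not tested.

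Higher in the amygdala were Cdh19, Cdh6, Cdh7, Cdh20 and Cdh22. Cdh19, known from cells of the Schwann lineage and other glia, had 96.6, 155 and 248 units in the amygdala, against 18.3, 41.5 and 50.3 in the hippocampus. Its 2 ranges were far apart, and it was 3.08-fold higher (log2 1.62, SE 0.11, limma adjusted p = 6.41e-13), beside the oligodendrocyte markers that were also higher, whose part in it was not tested. Cdh6, a cadherin first studied in kidney and used by some neurons to match with their targets, had 89.2, 112 and 161 units in the amygdala, against 47.6, 51.6 and 65.9 in the hippocampus. No hippocampus array reached the amygdala range, and the fold was 1.93 (log2 0.95, limma adjusted p = 4.89e-11). Cdh7, Cdh19 and Cdh20 all map to chromosome 1, and all 3 were higher in the amygdala. For Cdh7 the arrays read 38.1, 93.3 and 132 units in the amygdala, against 22.6, 44.0 and 61.2 in the hippocampus, with overlap (log2 0.81, limma adjusted p = 9.97e-06). All 3 probe sets of Cdh7 were higher, by 0.81 to 1.32 on the log2 scale. The 1.32 came from the dimmest of them, whose hippocampus arrays averaged only 15.1 units. That is under 23.3 units, the lowest mean the filter kept, so this probe set passed the filter through its amygdala arrays (mean 61.7). Cdh20 had 62.1, 95.9 and 121 units in the amygdala, against 34.4, 54.2 and 68.0 in the hippocampus, and Cdh22 had 126, 187 and 279 units, against 104, 125 and 148. Both overlapped, and both passed (log2 0.63 and 0.51, limma adjusted p = 3.81e-07 and 0.000112). Cdh10 differed by 0.017 at its brightest probe set, while a dimmer one passed at 0.30 (limma adjusted p = 0.000566).

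**Figure D2:**
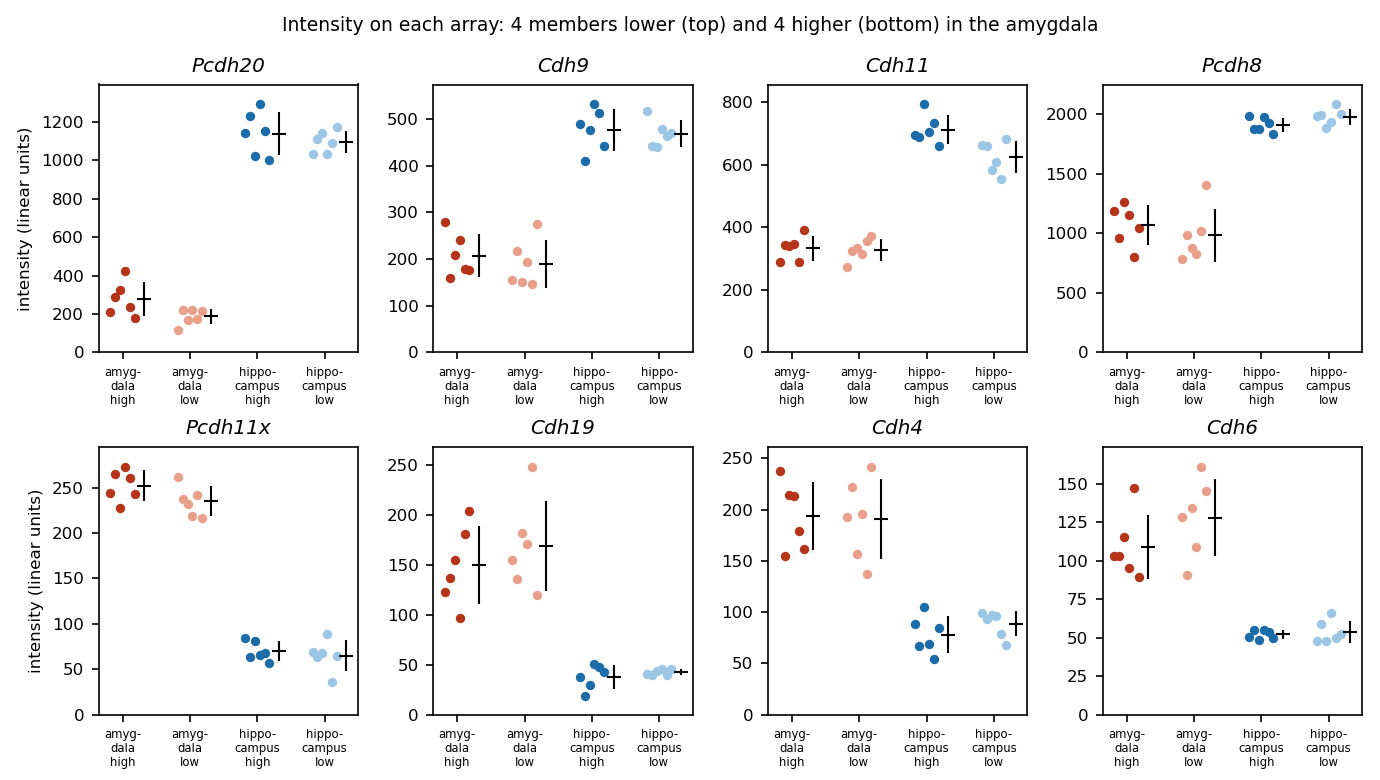
Intensity in linear units on each of the 24 arrays (points, 6 per group) with the group mean and SD (black), for Pcdh20, Cdh9, Cdh11 and Pcdh8, lower in the amygdala (top row), and Pcdh11x, Cdh19, Cdh4 and Cdh6, higher there (bottom row). Amygdala and hippocampus arrays do not overlap for any of these 8 genes, while high and low freezing arrays of 1 region do.

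Cdh6 and Cdh9 lie on chromosome 15 and moved in opposite directions, so their promoter windows are shown side by side. Each window runs from 250 bases before to 50 after the gene's start in RefSeq (GRCm38.p6), which had an entry for 20 members. Cdh9 is on the plus strand (chr15:16728665-16728964) and Cdh6 on the minus strand (chr15:13173626-13173925), both written 5′ to 3′ along the gene, with capitals for the longest run of bases that the windows share.
Cdh9: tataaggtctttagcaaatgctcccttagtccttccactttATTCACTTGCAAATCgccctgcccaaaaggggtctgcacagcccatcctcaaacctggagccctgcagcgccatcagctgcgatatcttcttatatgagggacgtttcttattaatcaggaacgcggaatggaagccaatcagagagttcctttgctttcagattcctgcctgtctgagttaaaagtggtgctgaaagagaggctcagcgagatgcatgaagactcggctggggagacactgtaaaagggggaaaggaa
Cdh6: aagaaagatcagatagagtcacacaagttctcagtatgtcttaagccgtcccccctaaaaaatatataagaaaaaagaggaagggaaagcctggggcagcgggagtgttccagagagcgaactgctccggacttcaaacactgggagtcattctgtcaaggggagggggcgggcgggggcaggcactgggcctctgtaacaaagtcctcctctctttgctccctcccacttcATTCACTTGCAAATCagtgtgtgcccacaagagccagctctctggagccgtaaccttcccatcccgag
The shared run has 15 bases, ATTCACTTGCAAATC, at bases 42 to 56 of the Cdh9 window and 233 to 247 of the Cdh6 window. On either strand it stands in 2 of the 32851 windows of all genes (0.00609%), which are these windows. No longer run was shared by windows of any pair of these 20 members, and another pair reached the same length. A match of letters is a description and not a binding site.

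Type I cadherins, the founding class, include the best known members. Cdh2 is N-cadherin, the main classical cadherin of neurons, present on both sides of many synapses. It had 696, 870 and 1060 units at the lowest, median and highest amygdala array, against 923, 1060 and 1190 in the hippocampus. The ranges overlapped and the amygdala was 1.20-fold lower (log2 -0.27, SE 0.056, limma adjusted p = 0.000187). Cdh4, or R-cadherin, a close relative of Cdh2 that can bind it, went the other way, with 137, 194 and 242 units in the amygdala against 54.6, 86.9 and 105 in the hippocampus. Here the regions were apart, at 2.09-fold higher (log2 1.06, SE 0.095, limma adjusted p = 9.76e-11). Cdh15, the cadherin of skeletal muscle, was dim in both regions, with 17.7 to 52.1 units in the amygdala, against 14.9 to 50.9 in the hippocampus, and did not pass. Cdh1, the E-cadherin of epithelia, had a mean of 12.4 units and Cdh3, the P-cadherin, 14.2, and neither reached the filter.

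Other cadherins were mostly dim. Cdh13, or T-cadherin, is held to the membrane by a lipid anchor, has no part inside the cell and binds adiponectin. It had 215, 262 and 335 units in the amygdala, against 155, 182 and 230 in the hippocampus. Apart from a short overlap the amygdala arrays were the higher ones, by 1.38-fold (log2 0.47, SE 0.064, limma adjusted p = 3.55e-07). Cdh5, the VE-cadherin of blood vessels and a type II member by sequence, had 28.4, 40.7 and 53.3 units in the amygdala, against 24, 33.3 and 56.2 in the hippocampus. Its difference of 0.15 (SE 0.098, limma adjusted p = 0.22) did not pass, and of the 5 endothelium markers 1 was higher in the amygdala. Cdh16 of kidney, Cdh17 of liver and intestine, Cdh23 of the hair cell tip link, and Cdh26 did not reach the filter, nor did the type II member Cdh18.

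Delta-1 protocadherins carry a motif inside the cell that binds protein phosphatase 1. Of the 4 genes, Pcdh11x, Pcdh7 and Pcdh9 were higher in the amygdala, and Pcdh1 did not pass (log2 0.0017). That is 75% called, beside 56.2% of all genes (31.6% higher). Pcdh11x, on the X chromosome, had 217, 242 and 273 units in the amygdala, against 35.6, 66.8 and 89.0 in the hippocampus. The lowest amygdala array was well above the highest hippocampus array, and the level was 3.15-fold higher (log2 1.66, SE 0.081, limma adjusted p = 1.61e-16), with 1.21 at its other probe set. Pcdh7 had 554, 598 and 781 units in the amygdala, against 306, 405 and 476 in the hippocampus, without overlap (log2 0.64, limma adjusted p = 1.23e-09). Pcdh9 had 779, 991 and 1190 units in the amygdala, against 607, 740 and 983 in the hippocampus. These ranges overlapped, and the amygdala was higher by 0.40 (limma adjusted p = 7.20e-06).

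Delta-2 protocadherins split evenly: of 5 genes, Pcdh10 and Pcdh18 were higher in the amygdala, Pcdh8 and Pcdh19 were lower, and Pcdh17 did not pass. That is 80% called, beside 56.2% of all genes. Pcdh8, also called arcadlin, is made by rat hippocampal neurons after strong activity and takes N-cadherin into the cell. It had 781, 1000 and 1400 units at the lowest, median and highest amygdala array, against 1830, 1950 and 2080 in the hippocampus. The hippocampus arrays lay close together and apart from the amygdala arrays, which were 1.91-fold lower (log2 -0.93, SE 0.071, limma adjusted p = 3.36e-12). Pcdh19 is an X-linked gene whose mutations cause an epilepsy mainly in women and girls, and its protein works in a complex with N-cadherin. Its arrays read 359, 481 and 667 units in the amygdala, against 787, 863 and 966 in the hippocampus. They did not overlap, and the level was 1.79-fold lower (log2 -0.84, SE 0.068, limma adjusted p = 1.17e-11). Cdh2, the partner of both proteins, was lower as well, though by less. Pcdh10, which in mouse guides axons of the striatum, had 341, 387 and 489 units in the amygdala, against 187, 226 and 294 in the hippocampus. The regions were apart, at 1.74-fold higher (log2 0.80, SE 0.064, limma adjusted p = 9.98e-12), and all 6 of its probe sets passed in this direction, at 0.38 to 0.80. The striatal and central amygdala markers were higher beside it, and their part was not tested. Pcdh18 was dimmer, with 31.1, 67.7 and 90.5 units in the amygdala against 8.54, 35.1 and 47.3 in the hippocampus, and overlapped (log2 0.81, SE 0.14, limma adjusted p = 1.28e-05). Pcdh17, which acts at synapses of the cortex and basal ganglia, had 674, 708 and 786 units in the amygdala, against 611, 714 and 956 in the hippocampus (log2 -0.038, limma adjusted p = 0.577). Pcdh15, the partner of Cdh23 in hair cells, was dim but higher in the amygdala (log2 0.45, limma adjusted p = 0.00071), while Pcdh12 of blood vessels did not reach the filter.

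Pcdh20, Pcdh8, Pcdh9 and Pcdh17 share chromosome 14, and the first 2 were lower, Pcdh9 higher and Pcdh17 not called. Promoter windows of Pcdh20 and Pcdh19, both lower in the amygdala, are shown for their unlike base composition. They are Pcdh20 (chr14:88471347-88471646, minus strand) and Pcdh19 (chrX:133688944-133689243, minus strand) from RefSeq in GRCm38.p6, with CG steps in capitals.
Pcdh20: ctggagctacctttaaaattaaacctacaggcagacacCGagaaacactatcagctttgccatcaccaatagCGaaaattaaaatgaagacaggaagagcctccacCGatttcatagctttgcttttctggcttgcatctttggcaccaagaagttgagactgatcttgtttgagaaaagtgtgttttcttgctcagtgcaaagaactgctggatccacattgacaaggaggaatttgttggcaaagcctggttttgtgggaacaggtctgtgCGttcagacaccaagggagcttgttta
Pcdh19: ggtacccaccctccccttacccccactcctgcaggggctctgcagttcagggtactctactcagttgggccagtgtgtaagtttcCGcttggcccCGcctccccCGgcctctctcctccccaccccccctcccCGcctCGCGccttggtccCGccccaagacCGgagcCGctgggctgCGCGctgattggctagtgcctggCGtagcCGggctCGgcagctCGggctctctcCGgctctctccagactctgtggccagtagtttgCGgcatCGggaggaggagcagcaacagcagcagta
The Pcdh20 window holds 4 CG steps and 43.7% G and C, and 38% of all windows hold no more CG steps. The Pcdh19 window holds 18 CG steps and 67.7% G and C, and 71.9% of all windows hold no more. The median over all windows was 7 CG steps. Of 3 motifs searched on both strands, GGGCGG stood in 8 of the 23 members' windows and in 35.7% of all windows, TATAAA in 2 and in 13.6%, and CCAAT in 17 and in 37.4%. Both Pcdh20 and Pcdh19 hold CCAAT, and Pcdh19 alone of the pair holds GGGCGG.

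Clustered protocadherins of the beta group have 22 members here, each with its own promoter on chromosome 18, and 12 were tested. With Pcdhgc4, Cdh2, Pcdh1 and Pcdh12 they make up the 26 members on this chromosome, for which no sequence is shown. In the amygdala 5 were lower, Pcdhb3, Pcdhb7, Pcdhb9, Pcdhb12 and Pcdhb17, and none was higher by limma's adjusted p. These are 41.7% of the beta genes tested, beside 56.2% of all genes called (24.6% lower and 31.6% higher). The other 7 did not pass, with log2 differences from -0.19 for Pcdhb15 to 0.21 for Pcdhb21. Pcdhb9 had 185, 208 and 258 units at the lowest, median and highest amygdala array, against 264, 286 and 324 in the hippocampus. It was the only one of the 12 whose regions did not overlap (log2 -0.40, SE 0.054, limma adjusted p = 2.69e-07). Pcdhb12 had 33.3, 47.5 and 59.7 units in the amygdala, against 48.1, 62.0 and 86.1 in the hippocampus (log2 -0.36, limma adjusted p = 0.00122). Pcdhb7 had 56.4, 65.1 and 88.5 units in the amygdala, against 66.4, 82.7 and 152 in the hippocampus (log2 -0.33, limma adjusted p = 0.00354). For Pcdhb3 the values were 48.4, 62.6 and 105 units in the amygdala, against 66.8, 94.3 and 113 in the hippocampus (log2 -0.33, limma adjusted p = 0.00977). In these last 3 genes the regions overlapped. Pcdhb17 passed narrowly (log2 -0.20, limma adjusted p = 0.0235). Without amygdala low freezing array 6 it no longer passed, and Pcdhb15 passed as lower once arrays were normalized by quantiles or centred on their medians. Beta genes are close copies of one another, so a probe set may also read a neighbour. The other 10 beta genes, with means of 7.85 to 18.3 units, did not reach the filter, and Pcdhgc4, the gamma member, did not pass (log2 0.19).

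Partners and regulators of cadherins were taken as a list of 22 genes, of which 20 were tested. In the amygdala 8 were called higher and 8 lower, beside 31.6% and 24.6% of all genes. The list's median log2 difference was 0.027, beside 0.036 over all genes. Pkp2, a plakophilin of desmosomes, averaged 172 ± 22.7 units in the amygdala, against 635 ± 74.0 in the hippocampus, 3.47-fold lower (limma adjusted p = 6.60e-19). Nectin3, an adhesion protein of the mossy fibre synapse in mouse, averaged 148 ± 25.2 units in the amygdala, against 332 ± 33.4 in the hippocampus, 2.14-fold lower (limma adjusted p = 2.24e-14). The dentate markers were lower beside both, and their part was not tested. Ctnna1, an alpha-catenin that links cadherins to actin, averaged 1310 ± 106 units in the amygdala, against 675 ± 58.1 in the hippocampus, 1.93-fold higher (limma adjusted p = 3.10e-16). Each of these errors is an SD over 12 arrays. Jup, which is plakoglobin, Ptprm, a phosphatase that binds cadherins, and Ctnnd1, which is p120-catenin, were higher by 0.74, 0.55 and 0.47 on the log2 scale. Ctnnb1, the beta-catenin shared by classical cadherins, averaged 4670 ± 152 units in the amygdala, against 4620 ± 251 in the hippocampus, and did not pass (log2 0.018, limma adjusted p = 0.679). Ctcf, Wapl and Smchd1, which regulate the clustered protocadherin promoters, were slightly lower, with log2 differences of -0.18, -0.15 and -0.16.

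Of 20 further genes of the cadherin superfamily, 14 were tested, and the median of their log2 differences was -0.14. In the amygdala 3 were called higher and 7 lower, beside 31.6% and 24.6% of all genes. Clstn2, a calsyntenin of synapses, was 3.13-fold lower, and Fat4, a giant cadherin of cell polarity, 2.70-fold lower. Fat1 was 2.10-fold higher, and Ret, a growth factor receptor with cadherin repeats, 4.07-fold higher. Celsr1, Celsr2 and Celsr3, which steer axons, were all lower (log2 -0.31, -0.43 and -0.37).

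Freezing, the trait under selection, gave no call in these genes at their brightest probe sets. High minus low freezing passed in 0 of the 38 members in the amygdala and in 0 in the hippocampus by limma's adjusted p, where the smallest values were 0.152 and 0.167. Of all probe sets kept 0.0555% passed in the amygdala and 0.0518% in the hippocampus. At an unadjusted p under 0.05 there were 2 members (5.26%) in the amygdala, beside 10% of all genes, and 6 (15.8%) in the hippocampus, beside 12.1% of all genes. The difference of the freezing effect between the regions also passed in 0 members, with a smallest adjusted p of 0.824, beside 0% of all probe sets. At an unadjusted p under 0.05 there were 2 members, beside 5.6% of all genes.

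**Figure D3:**
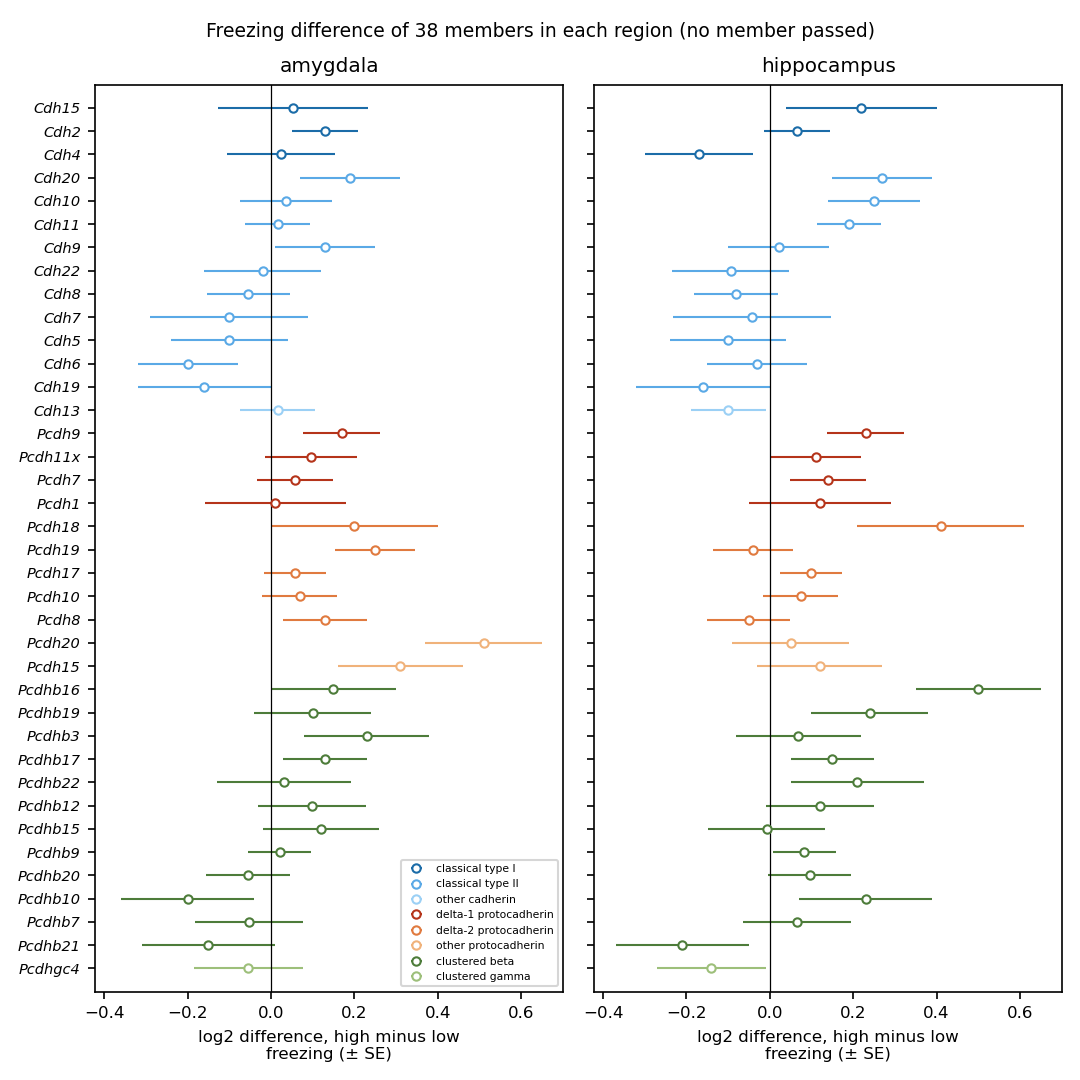
Log2 difference, high minus low freezing, with its standard error from limma for the 38 members tested, in the amygdala (left) and the hippocampus (right), in the same order of genes. Most protocadherins lie to the right of 0 in both panels, no member passed, and the points farthest right are Pcdh20 in the amygdala (0.51) and Pcdhb16 in the hippocampus (0.50).

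In the amygdala the smallest p belonged to Pcdh20. Its arrays had 179, 263 and 426 units at the lowest, median and highest in high freezing mice, against 117, 197 and 221 in low freezing mice. The groups overlapped, with a log2 difference of 0.51 (SE 0.14, unadjusted p = 0.00127, limma adjusted p = 0.152). In the hippocampus the same probe set differed by 0.050 (unadjusted p = 0.726), and the test between the regions gave 0.46 (unadjusted p = 0.0303, limma adjusted p = 0.824). The dimmer probe set of Pcdh20 differed by 0.73 in the amygdala and by 0.42 in the hippocampus (limma unadjusted p = 0.00114 and 0.05). Between the regions it gave 0.32 (limma unadjusted p = 0.275), so it did not show the same contrast of regions. The 3 excitatory neuron markers summed to 859, 1060 and 1130 units at the lowest, median and highest high freezing amygdala array, against 756, 855 and 1120 in low freezing ones. Neurod6 differed by 0.60 (unadjusted p = 0.00482), Slc17a7 by 0.33 (0.0904) and Nrgn by 0.10 (0.308). Of the dentate granule cell and hippocampal pyramidal cell markers, Fibcd1 differed by 0.57 (unadjusted p = 0.0092), Tdo2 by 0.42 and C1ql2 by 0.36 (0.014 each). Dsp (0.11), Spink8 (0.12) and Bok (0.10) differed less. Prox1 (-0.14), Lct (-0.10), Wfs1 (-0.13) and Man1a (-0.18) went the other way, and the medians of the 2 lists were 0.11 and 0.10. Rspo2, of the basolateral list, differed by 0.51 (unadjusted p = 0.0332), while Nr4a2 (0.071) and Otof (0.012) of that list hardly differed. Isl1, of the striatal and central amygdala list, differed by -0.38 (unadjusted p = 0.017), beside a list median of -0.30. The astrocyte markers summed to 2830 to 3560 units in high freezing amygdala arrays, against 3510 to 4370 in low freezing ones, with Gfap at -0.90 (unadjusted p = 0.000183, limma adjusted p = 0.0851). None of these markers passed limma's adjusted p in the amygdala, and their part in the value of Pcdh20 was not tested. Pcdh19 came next, with 403, 530 and 667 units in high freezing amygdala arrays and 359, 435 and 542 in low freezing ones (log2 0.25, limma adjusted p = 0.32). Pcdh15 (0.31), Pcdh9 (0.17) and Cdh6 (-0.20) made up the 5 smallest, none of which passed. For the difference between the regions the other small p-values at brightest probe sets were those of Pcdh19 (0.29), Pcdhb10 (-0.42), Pcdhb16 (-0.35) and Cdh11 (-0.17). Smaller p-values came from a dimmer probe set of Cdh13 (0.74, unadjusted p = 0.000448, limma adjusted p = 0.706) and of Pcdh19 (0.50, unadjusted p = 0.00439, limma adjusted p = 0.772). Neither passed, and the brightest probe set of Cdh13 gave 0.12.

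In the hippocampus Pcdhb16 was first. It had 98.4, 114 and 149 units at the lowest, median and highest high freezing array, against 67.2, 77.7 and 91.1 in low freezing mice. These 2 groups did not overlap (log2 0.50, SE 0.15, unadjusted p = 0.00225, limma adjusted p = 0.167), but a dimmer probe set of Pcdhb16 had 21.2, 31.3 and 47.0 units in high freezing and 19.9, 28.0 and 35.1 in low freezing mice. Cdh20 was the other member without overlap in the hippocampus, with 54.6, 56.7 and 68.0 units in high freezing arrays and 34.4, 50.1 and 53.8 in low freezing ones (log2 0.27, limma adjusted p = 0.386). So 2 of 38 members had separate groups there, beside 0.722% of all genes, and in the amygdala 0 of 38, beside 0.545%. Pcdh9 (0.23), Cdh11 (0.19) and Cdh10 (0.25) followed and did not pass.

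Averaged over both regions, high minus low freezing passed in 1.05% of all probe sets kept and in 0 of 38 members at their brightest probe set, by limma's adjusted p, with a smallest value of 0.115. An unadjusted p under 0.05 was found for 5 members (13.2%), beside 16.1% of all genes: Pcdhb16 (0.33), Pcdh9 (0.20), Pcdh20 (0.28), Cdh20 (0.23) and Pcdh18 (0.31). The protocadherins leaned one way without passing. In 22 of 24 tested the averaged difference was above 0, with a median of 0.10, beside 50.8% of all genes and a median of 0.0021, while of the numbered cadherins 6 of 14 were above 0. With arrays normalized by quantiles it was 20 of 24, beside 48.6% of all genes, and with arrays centred on their medians 18 of 24, beside 32.7%. The array medians moved with freezing too, at 41.3 to 43.4 units in high freezing and 39.5 to 43.0 in low freezing amygdala arrays, and at 37.5 to 41.5 in high freezing and 36.7 to 38.7 in low freezing hippocampus arrays. Genes on 1 array are not independent, so the count of signs carries no test.

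The dimmer probe set of Pcdh20 did pass in this averaged comparison, and it was picked out after its values were seen. It had 86.9, 145 and 241 units in the high freezing amygdala, against 34.2, 88.3 and 112 in the low freezing amygdala, and 504, 548 and 616 units in the high freezing hippocampus, against 258, 427 and 525 in the low freezing hippocampus. High freezing arrays were the higher ones in both regions, with overlap in each. The log2 difference was 0.57 (unadjusted p = 0.000407, limma adjusted p = 0.0438). It was the 1 call among 67 probe sets of members tested, beside 1.05% of all probe sets kept. The call is narrow: of 9 other settings that keep all arrays 5 passed (adjusted p 0.0339 to 0.0769), and of 24 that leave out 1 array 8 passed (0.0245 to 0.0723). It was lost with an offset of 1, without the filter, without the variance trend and with a robust prior. It was also lost without any 1 of amygdala high freezing arrays 8 to 11, amygdala low freezing arrays 1, 3 and 5, hippocampus high freezing arrays 7, 8, 10, 11 and 12, or hippocampus low freezing arrays 1, 2, 4 and 5. The brighter probe set of the same gene gave 0.28 (limma adjusted p = 0.156). In the same averaged comparison Gfap, the astrocyte filament gene, was itself called as lower in high freezing mice (log2 -0.87, limma adjusted p = 0.00279). Neurod6 differed by 0.42 (unadjusted p = 0.00551), Tdo2 by 0.37 (0.00299) and Nectin3, a gene of the cadherin partner list, by 0.23 (0.0021), none of which passed limma's adjusted p. Of the other excitatory neuron markers, Slc17a7 differed by 0.20 and Nrgn by -0.09. Of the other dentate markers, Dsp differed by 0.16, C1ql2 by 0.052, Lct by -0.066 and Prox1 by -0.15. Of the other partner genes, Wapl differed by 0.17 (limma unadjusted p = 0.00171) and Nectin1 by 0.47 (0.00536). Pkp4 (-0.11, limma unadjusted p = 0.00673), Ctnnd2 (-0.12, 0.0129) and Jup (-0.24, 0.0144) went the other way. The median was 0.052 over the dentate list and 0.0036 over the partner list. The part of these genes in the value of Pcdh20 was not tested.

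**Figure D4:**
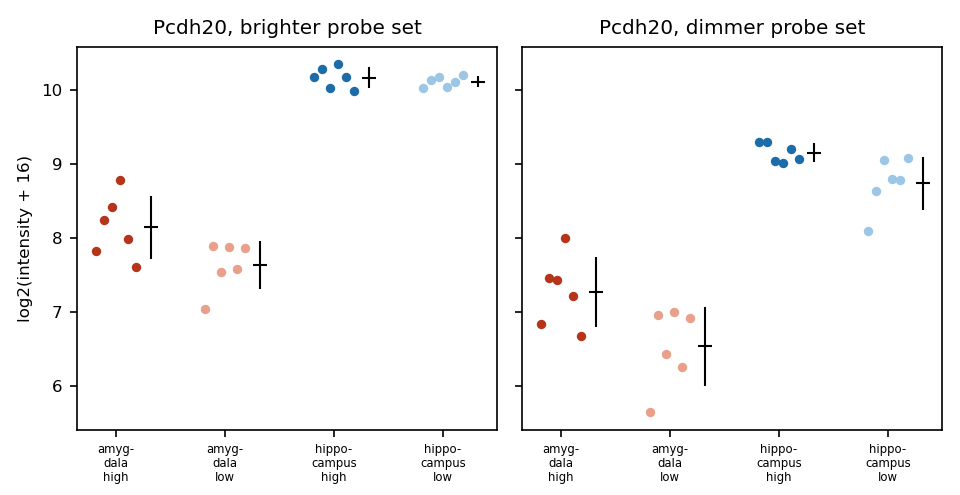
Log2(intensity + 16) of Pcdh20 on each array (points, 6 per group, with mean and SD in black), for its brighter (left) and its dimmer probe set (right). The high freezing mean lies above the low freezing mean in both regions at both probe sets. In the hippocampus at the brighter one the gap is only 0.050, and the regions stand far apart at both.

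Probe sets of 1 gene mostly went together between regions. Of 29 further probe sets past the filter, 25 had the sign of the brightest in the regional comparison, 22 passed with that sign and 0 passed with the opposite sign. Of all probe sets kept, 51.2% passed in either direction. For freezing, the 3 probe sets of Cdh7 gave log2 differences of -0.074, -0.47 and 0.24 averaged over both regions, and none passed (limma adjusted p = 0.0771 for the second). No freezing difference of a member at its brightest probe set exceeded the 0.51 of Pcdh20 in the amygdala, while the regional differences reached -2.25 and 1.66.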

How the data were processed

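Deposited values were linear intensity values, 1 per probe set and array, for 45101 probe sets on 24 arrays with total RNA; the software behind them was not given in the sources used here. With the top and bottom 2% trimmed, the deposited intensity values of every array averaged 150, so they were taken as scaled and not normalized again. After removal of 64 control probe sets and of the dimmest 40% by mean log2(intensity + 16), 27022 remained. The lowest mean kept was 23.3 units. All 24 arrays went into 1 limma model (limma 3.58.1, R 4.3.3) of 4 group means, whose variance prior followed intensity, with 20 residual degrees of freedom. Two-sided p-values were adjusted by Benjamini-Hochberg over all probe sets kept, at 0.05. The code was tested on simulated data. The number of arrays limits the precision.

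Symbols came from the platform annotation given with the probe sets, and chromosomes and promoters from RefSeq (GRCm38.p6). The members and lists were chosen with earlier results of these data known, as was the averaged freezing comparison. Named in full were the 10 highest and the 10 lowest members past the threshold between regions, the 5 smallest p-values of each freezing comparison, and Cdh1, Cdh2, Cdh4, Cdh5, Cdh13 and Pcdh19; of the partner list, the 6 widest differences past the threshold; other probe sets and list genes were named after their values were seen.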

Additional observations from a re-analysis of the deposited data

Results flagged for a closer look

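Of 112 member and group pairs examined, 28 named members in 4 groups, 4 held an array far from the other 5 by Dixon's ratio at its 95% limit, which chance gives in about 1 in 20 groups. Cdh7 read 22.6 units on hippocampus low freezing array 4, against 43.2 to 57.0 on the others. Pcdh10 read 294 units on hippocampus high freezing array 12, against 206 to 230. Pcdh7 read 781 units on amygdala low freezing array 6, against 554 to 629. Pcdhb7 read 152 units on hippocampus low freezing array 6, against 66.4 to 87.7.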

How the results depend on the processing

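The number of members called between regions was 25 of 38, and 21 to 28 under other settings: 25 with an offset of 1 or 64, without the variance trend or with a robust prior, 26 with quantile normalization or median centring, 28 of 56 without the filter, 21 of 26 with the dimmest 60% left out and 24 of 37 with a gene's probe sets averaged. Without the filter Cdh3, Cdh23 and Pcdhb13 were added. With the array number as a replicate block 25 members were called between regions and 0 for freezing (correlation 0.0256), so the block changed no call; the labels number the arrays 1 to 12 in both regions, but same-numbered arrays did not deviate together (r from -0.0791 to 0.0865). Leaving out 1 array gave 24 to 26 between regions: Pcdhb15 was added without hippocampus low freezing array 2 or amygdala high freezing array 7, Pcdhb21 without hippocampus high freezing array 8 and Pcdhgc4 without amygdala low freezing array 2. For freezing and its difference between regions the count was 0 in each of these settings, and 0 with 1 region fitted alone, with smallest adjusted p-values of 0.0635 in the hippocampus and 0.376 in the amygdala. Each member named by the rule kept its direction and its side of the threshold in each setting in which it was tested; Pcdhb17, outside the rule, lost its call without amygdala low freezing array 6. The 18 members under the filter were tested only without it, and with 6 arrays a group small freezing differences may be missed.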

Other observations

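Alpha protocadherins, the cluster next to the beta genes, have no member above because their probe sets carry several symbols, and 6 probe sets of this kind were found, 4 of them past the filter. They read parts shared by several alpha transcripts, so no single gene can be named. The 3 that carry 14 symbols each were lower in the amygdala. They averaged 682 ± 105 units in the amygdala, against 1110 ± 89.2 in the hippocampus (log2 -0.71, limma adjusted p = 7.78e-11), 306 ± 39.2 in the amygdala against 436 ± 23.6 in the hippocampus (log2 -0.50, limma adjusted p = 1.86e-09), and 122 ± 17.8 in the amygdala against 184 ± 24.5 in the hippocampus (log2 -0.53, limma adjusted p = 5.89e-07; SD, n = 12 each). The one with 9 symbols that was tested averaged 29.5 ± 12.5 units in the amygdala, against 24 ± 12.6 in the hippocampus, and did not pass (log2 0.19, limma adjusted p = 0.273). None of the 4 passed for freezing by limma's adjusted p.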
